A study of Mus musculus with 6 samples.

Results

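The genes described here are 9 genes of glucose production and glucose sensing in the liver, taken by their names on the array: the enzymes Pck1, G6pc, Fbp1 and Pcx, the regulators Ppargc1a and Foxo1, the insulin signalling adaptor Irs2, and Gckr and Pklr on the glycolytic side. They are 9 of 37074 gene names and 11 of 56605 probes, since Ppargc1a and Foxo1 have 2 probes each. RNA from 6 livers was profiled on Agilent 1-colour arrays, with an array for each liver. The 3 sEV livers came from nude mice given small extracellular vesicles (sEVs, particles shed by cells and bounded by membrane) from the human colorectal cancer cell line SW620, at 20 µg per injection into the tail vein, with 10 injections over 21 days. The 3 control livers came from nude mice given sterile buffer on that schedule, and each group had 5 mice. Both groups share the nude background, a strain without mature T cells, and no age, sex, feeding state or hour of dissection is given in the sources used here. Whether separate cages or days lay behind the groups is not given either, so the p-values measure the spread between these livers.

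The liver makes glucose from lactate, alanine and glycerol during fasting. Pyruvate carboxylase and phosphoenolpyruvate carboxykinase carry out the first steps, fructose bisphosphatase a middle step and glucose-6-phosphatase the last one, mainly in hepatocytes near the portal vein. Glucagon (through cAMP), glucocorticoids and FOXO1 raise transcription of these enzymes, and insulin, acting through IRS1 and IRS2, lowers it. Glucokinase, held in the nucleus by its regulatory protein, and pyruvate kinase work in the opposite direction when glucose is plentiful.

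Pck1 and Irs2 were higher in sEV livers, and the other 7 genes did not pass the test. Pck1 was 1.73-fold and Irs2 2.61-fold higher in sEV livers. Of all 19447 genes tested, 17.0% passed the same threshold (adjusted p under 0.05 in limma, adjusted over all genes), 9.08% as higher and 7.95% as lower in sEV livers, so 2 of 9 is near the share over all genes. The median log2 fold change of the 9 genes was 0.17, against 0.03 over all genes tested. Groups did not overlap for 2 of the 9 genes, against 40.9% of all genes. G6pc, the gene that releases free glucose, differed more among the 3 sEV livers than between the groups.

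The promoters of Pck1 and Irs2, which passed as higher, and of G6pc, which did not pass, are shown to set side by side the regulatory letters near their starts. Each is the 250 bases before the start of the gene in RefSeq on build GRCm38.p6, read 5′ to 3′ on the gene's own strand, at chr2:173152823-173153072 (plus strand) for Pck1, chr8:11008930-11009179 (minus strand) for Irs2 and chr11:101367466-101367715 (plus strand) for G6pc. Capitals mark matches, on either strand, to TGACG (the core of a cAMP response element), CAAAACA (the core of an insulin response sequence), CACGTG (an E-box), GTAAACA (a forkhead element) or TGTTCT (a glucocorticoid receptor core).
Pck1: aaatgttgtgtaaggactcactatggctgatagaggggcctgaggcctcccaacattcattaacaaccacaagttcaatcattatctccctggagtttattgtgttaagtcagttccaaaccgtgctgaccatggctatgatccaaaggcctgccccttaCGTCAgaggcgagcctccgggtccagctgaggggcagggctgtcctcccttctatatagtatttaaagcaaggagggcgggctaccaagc
Irs2: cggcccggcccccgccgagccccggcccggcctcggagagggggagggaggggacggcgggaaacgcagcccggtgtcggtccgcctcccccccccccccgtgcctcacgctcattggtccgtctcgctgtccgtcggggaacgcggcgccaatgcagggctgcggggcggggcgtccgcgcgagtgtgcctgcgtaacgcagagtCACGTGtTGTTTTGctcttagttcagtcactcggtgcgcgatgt
G6pc: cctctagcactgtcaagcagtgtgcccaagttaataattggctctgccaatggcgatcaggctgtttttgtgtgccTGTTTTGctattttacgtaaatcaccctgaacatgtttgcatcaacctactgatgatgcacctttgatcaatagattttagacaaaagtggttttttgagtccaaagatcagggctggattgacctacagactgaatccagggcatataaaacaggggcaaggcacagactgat
The Pck1 window held TGACG on the minus strand 90 bases before the start, and a cAMP response element close to the start is known from the rat gene. The Irs2 window held CACGTG 44 bases and CAAAACA, on the minus strand, 37 bases before the start, 2 matches that do not overlap. The G6pc window held CAAAACA on the minus strand 174 bases before the start. Of the 32851 promoter windows of this length in RefSeq, 17.8% held TGACG, 5.56% CAAAACA, 6.02% CACGTG, 3.17% GTAAACA and 16.1% TGTTCT. Among the other 6 genes, Ppargc1a held TGACG, Pcx CACGTG, and Gckr CAAAACA and TGTTCT, while the windows of Fbp1, Foxo1 and Pklr held none of these letters. GTAAACA was in 0 of the 9 windows. The windows of Ppargc1a and Gckr precede starts inside the gene spans given here, and those of Fbp1 and Pklr reach a few bases into theirs. A match describes the letters only and is not evidence of binding.

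Signals are given on a log2 scale after subtracting the 75th percentile of the array, so that 0 is the level of that percentile, and folds are sEV over control. All 11 probes were well above background on 6 of 6 arrays and all 9 genes were tested. The signals come from whole liver, where fewer cells of a type and less RNA per cell cannot be told apart. Across arrays, 49.9% to 53.3% of spots in sEV livers and 50.9% to 54.7% in control livers were well above background, 0 spots outside the controls were saturated, and the number of arrays limits the precision. Arrays correlated at 0.991 to 0.992 within the sEV group, at 0.993 to 0.995 within the control group and at 0.975 to 0.984 between groups. All arrays shared 1 slide and 1 scan, with the 3 controls and sEV 1 in row 1 and the other sEV arrays in row 2, so that row 2 alone gives no comparison.

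Pck1 (chromosome 2, 173153073 to 173159274) encodes the cytosolic phosphoenolpyruvate carboxykinase, the enzyme usually taken as the controlled entry step of gluconeogenesis. Its signal was 9.11, 8.91 and 8.97 in sEV livers, against 8.13, 8.23 and 8.26 in control livers. Every sEV liver lay above every control liver, and the gap between the groups was wider than the range within either. The means were 8.998 ± 0.103 in sEV livers and 8.207 ± 0.0698 in control livers (SD, n = 3 each). The log2 fold change was 0.79 ± 0.09 (SE) with an adjusted p of 0.00496 in limma, a fold of 1.73 with a 95% interval of 1.49 to 2.01. Within slide row 1, where sEV 1 is the sole sEV liver and is assumed to vary like the controls, the log2 fold change was 0.90 (adjusted p = 0.0451 in limma). Across the 19 alternatives run it lay between 0.56 and 0.90 and passed the threshold in each.

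G6pc (chromosome 11, 101367716 to 101377903) encodes the catalytic subunit of glucose-6-phosphatase, which frees glucose for release into the blood. Its signal was 7.33, 6.24 and 6.18 in sEV livers, against 6.43, 6.31 and 6.40 in control livers. sEV 1 was the highest of all 6 livers, and sEV 2 and sEV 3 were both below the lowest control. The means were 6.58 ± 0.65 in sEV livers and 6.38 ± 0.06 in control livers (SD, n = 3 each), and the log2 fold change of 0.20 ± 0.30 did not pass (adjusted p = 0.679 in limma). The 95% interval of the fold, 0.69 to 1.91, includes the fold estimated for Pck1. Without sEV 1 the log2 fold change was -0.17 (adjusted p = 0.252). With slide row as a block it was 0.95 (adjusted p = 0.0227), and within row 1, 0.95 (adjusted p = 0.0399), so both of those values rest on sEV 1.

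The enzymes of the other steps showed smaller differences. Fbp1 (chromosome 13, 62864753 to 62888298), fructose bisphosphatase, had 9.40, 9.52 and 9.56 in sEV livers, against 9.26, 9.52 and 9.42 in control livers. Its groups overlapped, and the log2 fold change of 0.09 ± 0.10 did not pass (adjusted p = 0.562 in limma, fold interval 0.90 to 1.26). Pcx (chromosome 19, 4510472 to 4621752), pyruvate carboxylase, which makes oxaloacetate from pyruvate, had 7.27, 7.13 and 7.35 in sEV livers, against 6.99, 7.10 and 7.15 in control livers. sEV 2 lay within the control range, and the log2 fold change of 0.17 ± 0.10 did not pass (adjusted p = 0.267 in limma, fold interval 0.96 to 1.32). The interval of the Pck1 fold (lower bound 1.49) lies above the upper bounds of both, while a test of the difference between genes was not run.

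**Figure D1:**
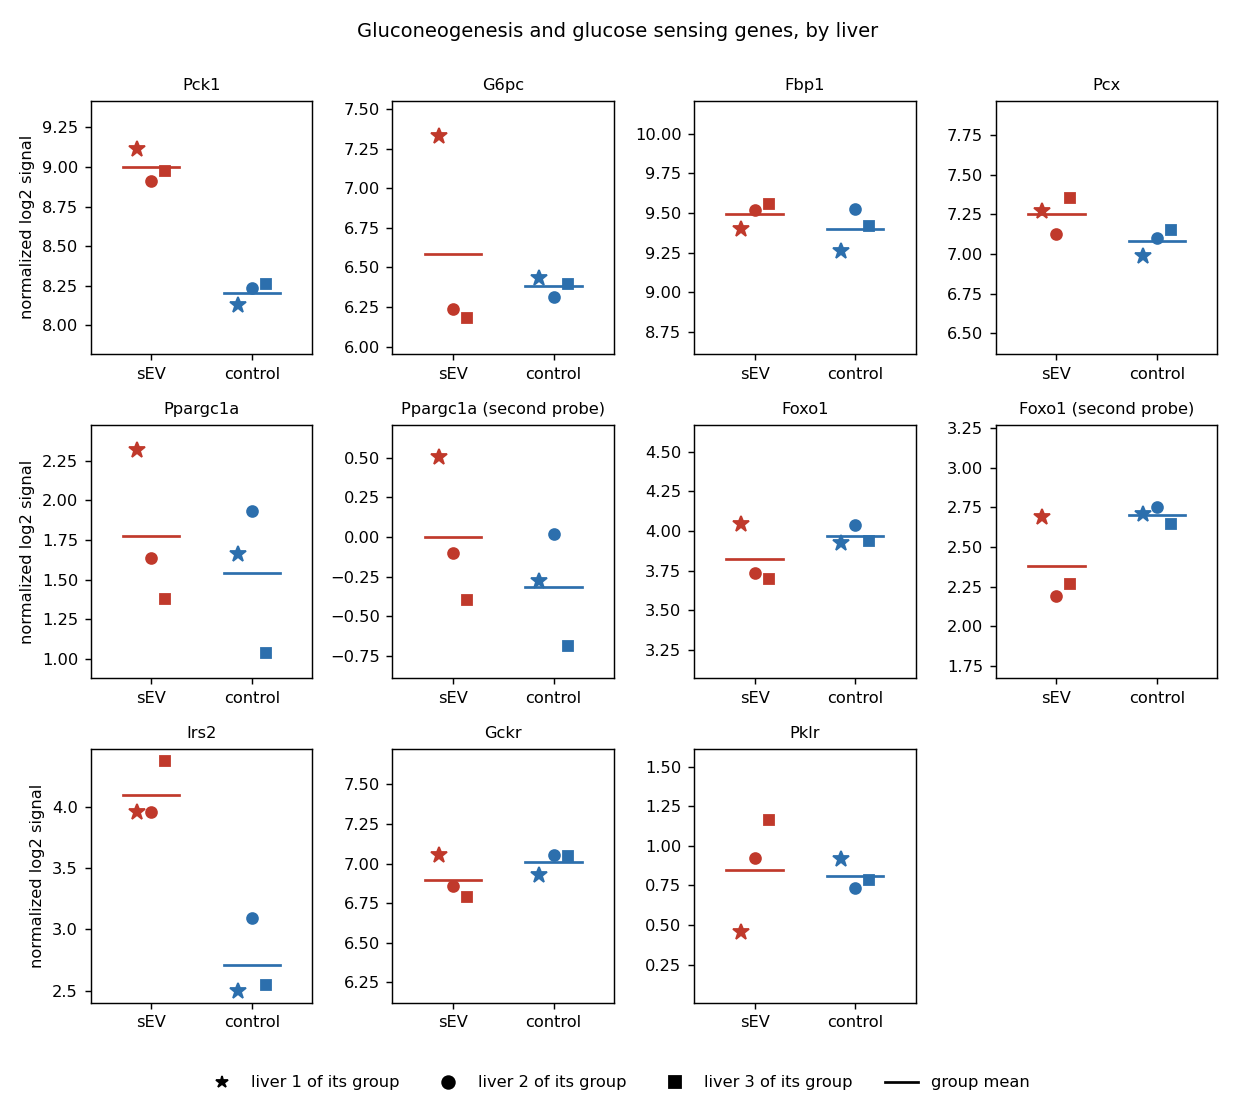
Normalized log2 signal (y axis, each panel with its own range) of the 9 genes in the 3 sEV livers (left of each panel) and the 3 control livers (right), with symbols for livers 1, 2 and 3 of a group and bars at the group means; Ppargc1a and Foxo1 have a panel for each probe. Pck1 and Irs2 show no overlap between groups, and sEV 1 stands above the other 5 livers for G6pc (7.33) and for both probes of Ppargc1a (2.32 and 0.50).

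Irs2 (chromosome 8, 10984681 to 11008929) encodes an adaptor that carries the signal of the insulin receptor, and its liver transcript is known to rise in fasting and with FOXO1. Its signal was 3.95, 3.96 and 4.38 in sEV livers, against 2.50, 3.09 and 2.55 in control livers. The lowest sEV liver lay above the highest control, control 2. The means were 4.10 ± 0.24 in sEV livers and 2.71 ± 0.33 in control livers (SD, n = 3 each). The log2 fold change was 1.38 ± 0.20 with an adjusted p of 0.00967 in limma, a fold of 2.61 with a 95% interval of 1.87 to 3.64. With slide row as a block the log2 fold change was 1.24 and no longer passed (adjusted p = 0.0891 in limma), nor did it within row 1 (1.24, adjusted p = 0.0967); in the other 17 alternatives it passed, and over all 19 it lay between 1.22 and 1.57.

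Ppargc1a (chromosome 5, 51454249 to 52115853) encodes PGC-1α, a coactivator that FOXO1 and HNF4A use at gluconeogenic genes. Its brighter probe (A_51_P279038) had 2.32, 1.63 and 1.38 in sEV livers, against 1.66, 1.93 and 1.03 in control livers. The other probe (A_55_P2745394), which starts 491 bases away by the array's annotation, had 0.50, -0.10 and -0.40 in sEV livers, against -0.28, 0.02 and -0.69 in control livers. Both probes put the 3 livers of each group in the same order, with sEV 1 the highest of all 6 livers and control 3 the lowest. The log2 fold changes were 0.23 ± 0.31 (adjusted p = 0.641 over genes in limma) and 0.32 ± 0.27 (adjusted p = 0.473 over probes). The fold interval of the brighter probe, 0.69 to 1.99, leaves the direction unsettled. With slide row as a block, a contrast that rests on sEV 1, the brighter probe was at 0.78 (adjusted p = 0.264 in limma) and the other at 0.82.

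Foxo1 (chromosome 3, 52268337 to 52350109) encodes the forkhead factor that insulin signalling keeps out of the nucleus. That control acts on the protein, which these arrays do not measure. The brighter probe (A_55_P2798990) had 4.04, 3.73 and 3.70 in sEV livers, against 3.93, 4.04 and 3.94 in control livers, a log2 fold change of -0.14 ± 0.12 (adjusted p = 0.425 in limma, fold interval 0.75 to 1.10). The other probe (A_52_P453884), 2343 bases away, had 2.69, 2.19 and 2.27 in sEV livers, against 2.71, 2.75 and 2.64 in control livers. On both probes sEV 2 and sEV 3 lay below every control, while sEV 1 lay just above the highest control on the brighter probe and within the controls on the other. For the second probe the change was -0.32 ± 0.15 on the log2 scale (adjusted p = 0.191 over probes in limma). Without sEV 1 it was -0.47 and passed (adjusted p = 0.0378), the brighter probe being at -0.25 (adjusted p = 0.137). With slide row as a block the second probe was at -0.00987 (adjusted p = 0.972).

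On the glycolytic side both genes stayed below the threshold. Gckr (chromosome 5, 31297266 to 31327302), the glucokinase regulatory protein, had 7.05, 6.86 and 6.79 in sEV livers, against 6.93, 7.06 and 7.05 in control livers. Its log2 fold change was -0.11 ± 0.10 (adjusted p = 0.475 in limma, fold interval 0.78 to 1.09). Pklr (chromosome 3, 89136122 to 89146815), the liver and red cell pyruvate kinase and a known target of the glucose-responsive factor ChREBP, had 0.46, 0.92 and 1.16 in sEV livers, against 0.91, 0.73 and 0.78 in control livers. sEV 1 was the lowest and sEV 3 the highest of all 6 livers, and the log2 fold change was 0.04 ± 0.18 (adjusted p = 0.906 in limma, fold interval 0.75 to 1.40).

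**Figure D2:**
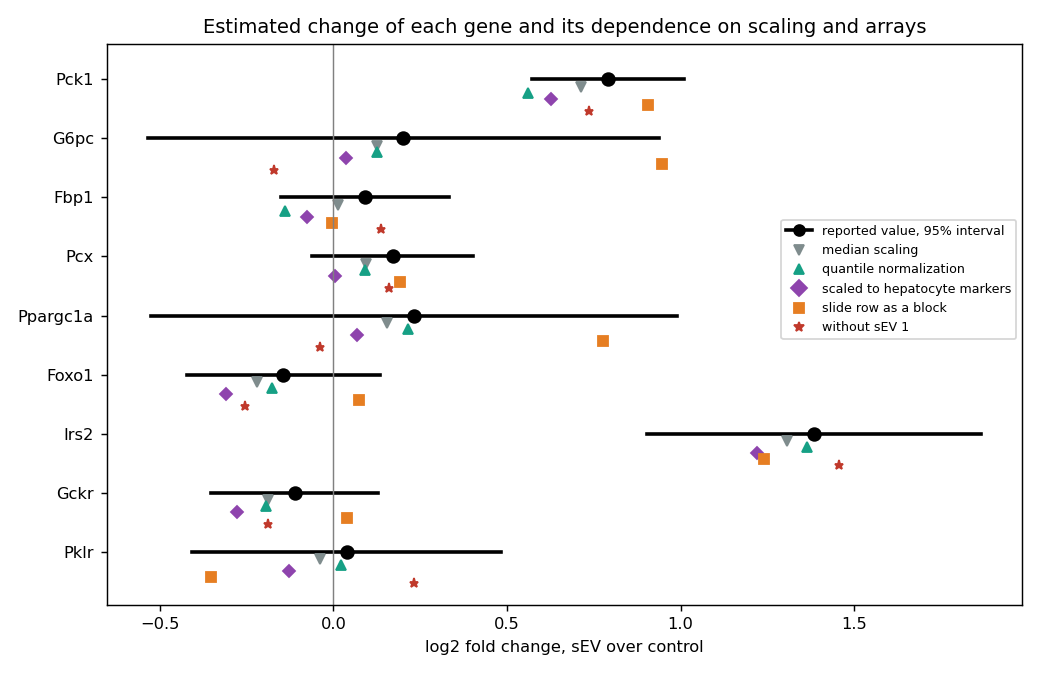
Log2 fold change of sEV over control (x axis) for each gene, with the reported value as a black point, its 95% interval as a line, and the value under 5 alternatives as coloured symbols. Pck1 (0.79) and Irs2 (1.38) stay to the right of 0 under each of these, and G6pc runs from -0.17 without sEV 1 to 0.95 with slide row as a block.

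The sEV livers were not alike in these genes. G6pc in sEV 1 was 1.12 above the mean of sEV 2 and sEV 3 on the log2 scale, and 1.75% of all genes tested had a gap of that size or more in either direction. For Ppargc1a the gap was 0.81, for the brighter probe of Foxo1 0.33 and for Pklr -0.59, gaps which 3.98%, 22.4% and 8.34% of all genes reached. Pck1 (0.17), Irs2 (-0.21), Fbp1 (-0.14) and Pcx (0.03) had smaller gaps. sEV 1 thus had the highest G6pc and Ppargc1a and the lowest Pklr of all livers, while sEV 2 and sEV 3 were below every control for G6pc. Among the 9 genes and the genes of the pathway lists, those with the next largest gaps, named after their values were seen, were Fasn (fatty acid synthase, -0.99), Asns (asparagine synthetase, -0.97) and Ppargc1b (a paralogue of Ppargc1a, 0.95). Fasn was 7.08, 7.87 and 8.27 in sEV livers, against 8.05, 7.65 and 7.71 in control livers, with sEV 1 the lowest of the 6. Over all genes the shares lying 1 or more from the mean of the other sEV livers were close, with sEV 1 the highest. They were 2.32% in sEV 1, 1.91% in sEV 2 and 2.06% in sEV 3. Of the 9 genes, 4 lay 0.25 or more from that mean in sEV 1, 4 in sEV 3 and 1 in sEV 2. sEV 1 is also the sEV liver in slide row 1, and the part of slide row in these gaps was not tested.

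**Figure D3:**
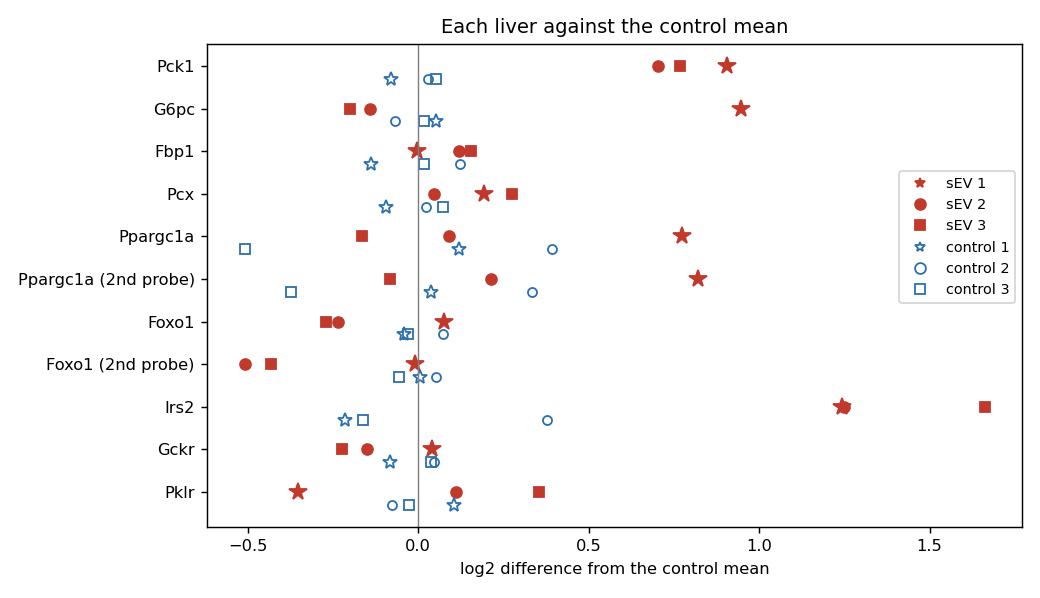
Log2 difference of each liver from the mean of the 3 controls (x axis) for the 11 probes, with sEV livers as filled red symbols above the open blue symbols of the controls. All 3 sEV livers lie to the right of all controls for Pck1 and Irs2, and the sEV 1 star lies apart from the other sEV livers for G6pc, both Ppargc1a probes and Pklr.

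The genes whose pattern over the 6 arrays was most like that of Pck1, by root mean square difference of centred log2 signals among 13518 named genes, were Tdo2 (0.0387), a tryptophan-degrading liver enzyme, Atl2 (0.0495), which shapes the endoplasmic reticulum, and Gpld1 (0.0545), a secreted phospholipase. Tdo2 had 8.04, 7.95 and 7.98 in sEV livers, against 7.09, 7.26 and 7.24 in control livers. For G6pc, Cped1 (0.119) and Prdm1 (0.126), a transcriptional repressor, were among the nearest. Prdm1 had -2.25, -3.19 and -3.17 in sEV livers, against -2.94, -3.17 and -3.32 in control livers. Its high value in sEV 1 follows from being picked for likeness to G6pc. With 6 arrays such likeness is a description only.

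In the wider pathway, 43 of 146 tested genes in 9 lists passed (29.5%, against 17.0% of all genes), 32 higher and 11 lower in sEV livers. Their median log2 fold change was 0.12, against 0.03 over all genes, and it turned to -0.04 with arrays scaled to hepatocyte markers. There 24 of 146 passed, 9 higher and 15 lower, against 2624 of 19447 over all genes. With slide row as a block 8 of 146 passed, 7 of them higher, against 715 of 19444 over all genes. Leaving out any of the 6 arrays in turn left 12 to 28 of 146, against 1349 to 2767 of 19447 over all genes. The lowest count for the pathway came without control 1 and without control 2. Genes named below were each run under 13 settings. Not among these were the changes of filter, the mean over probes of a gene, the variance model, array weights and the replicate block. Within slide row 1 alone the calls of Sds, Got1, Cps1 and Arntl ended, and those of Cebpb, Grb10 and Dbp ended there and with slide row as a block. Klf9 and Pdha1 lost their calls in those 2 settings and with hepatocyte marker scaling, and Ptpn1 in those 2 and without control 1. Igfbp1, Tat, Insig2, Hk3, Saa3 and Orm2 passed in each of the 13 settings. Other calls were less steady. They ended in 12 settings for G6pdx and Pfkfb2, 11 for Tpi1, 10 for Inpp5d, Rhbg and Lep, and 9 for Eno1 and Gbe1. They ended in 8 for Acacb, Aldoa, Arrdc4, Gpt2, Gyg, Gys2, Sesn1 and Slc2a1. For Hnf4a and Pfkl they ended in 6, for Insr and Ppara in 5, for Ppp1r3c in 4 and for Hk2 in 1.

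In the fasting and FOXO1-linked list, 3 of 14 rose and 3 fell, with a median of 0.00. Igfbp1, a secreted IGF-binding protein and a classic FOXO1 target, had 7.94, 7.67 and 7.92 in sEV livers, against 5.64, 6.37 and 6.01 in control livers, with no overlap. It rose 3.57-fold (log2 fold change 1.84 ± 0.19, adjusted p = 0.00406 in limma) and passed in each setting. Tat, tyrosine aminotransferase, a classic glucocorticoid-induced liver enzyme, had 8.43, 8.13 and 8.22 in sEV livers, against 7.01, 6.96 and 7.23 in control livers, a 2.29-fold rise (1.20 ± 0.12, adjusted p = 0.0035) that also passed in each setting. Other genes of that list went the other way: Fgf21, a fasting hormone, had -1.40, -1.60 and -0.34 in sEV livers, against 1.31, 0.68 and 0.13 in control livers (-1.82 ± 0.42, adjusted p = 0.0329), and its call ended in 6 settings. Sesn1, a stress-induced sestrin, fell by 0.38 on the log2 scale (adjusted p = 0.038 in limma). As many genes of the list rose as fell.

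In the list of pyruvate, lactate, glycerol and alanine supply, 5 of 19 rose and 1 fell, with a median of 0.03 that turned to -0.05 with median scaling, -0.03 with quantile normalization and -0.14 with hepatocyte marker scaling. Sds, serine dehydratase, which turns serine into pyruvate, had 6.58, 6.37 and 6.48 in sEV livers, against 4.61, 5.16 and 5.08 in control livers. It rose 2.87-fold (1.52 ± 0.16, adjusted p = 0.00408 in limma), and a dimmer probe for it gave 1.34 without passing (adjusted p = 0.0992 over probes). Got1, the cytosolic aspartate aminotransferase, had 7.76, 7.46 and 7.50 in sEV livers, against 6.37, 6.81 and 6.47 in control livers, a 2.03-fold rise (1.02 ± 0.15, adjusted p = 0.00975) seen with all 3 of its probes. Gpt2, an alanine aminotransferase (0.63), and Pdha1, a subunit of pyruvate dehydrogenase (0.56), also rose on the log2 scale.

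Among other gluconeogenic and shared glycolytic enzymes, 3 of 13 rose and 1 fell, with a median of 0.23 that stayed above 0 under the scalings run, although with median scaling 0 passed as higher. Aldoa (aldolase A, 0.46) and Tpi1 (triose phosphate isomerase, 0.54) rose on the log2 scale. Other probes of Tpi1 were at 0.55 and 0.55, which passed over probes, and at 0.17, which did not. Pck2, the mitochondrial counterpart of Pck1, fell by 0.62. Pck2 had -0.27, -0.34 and -0.26 in sEV livers, against 0.64, 0.27 and 0.08 in control livers (adjusted p = 0.0377 in limma). Its call ended without any single sEV liver and in 4 other settings, while its direction opposed that of Pck1 in every setting. Eno1, enolase, passed at 0.43 with its brightest probe and at -0.48 with another, while the remaining probe was at 0.53 without passing (adjusted p = 0.0501 over probes in limma), so its probes disagree. In the glycolysis-specific list 4 of 12 rose and 0 fell, with a median of 0.38: Hk3, a hexokinase of white blood cells (1.05, passing in each setting), Hk2, a hexokinase low in normal liver (0.82), Pfkl, the liver phosphofructokinase (0.53), and Pfkfb2 (0.48), which sets fructose 2,6-bisphosphate. A second probe of Pfkl was at 0.06, and the other probes of Pfkfb2 were at 0.64, which passed over probes, and at 0.03.

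**Figure D4:**
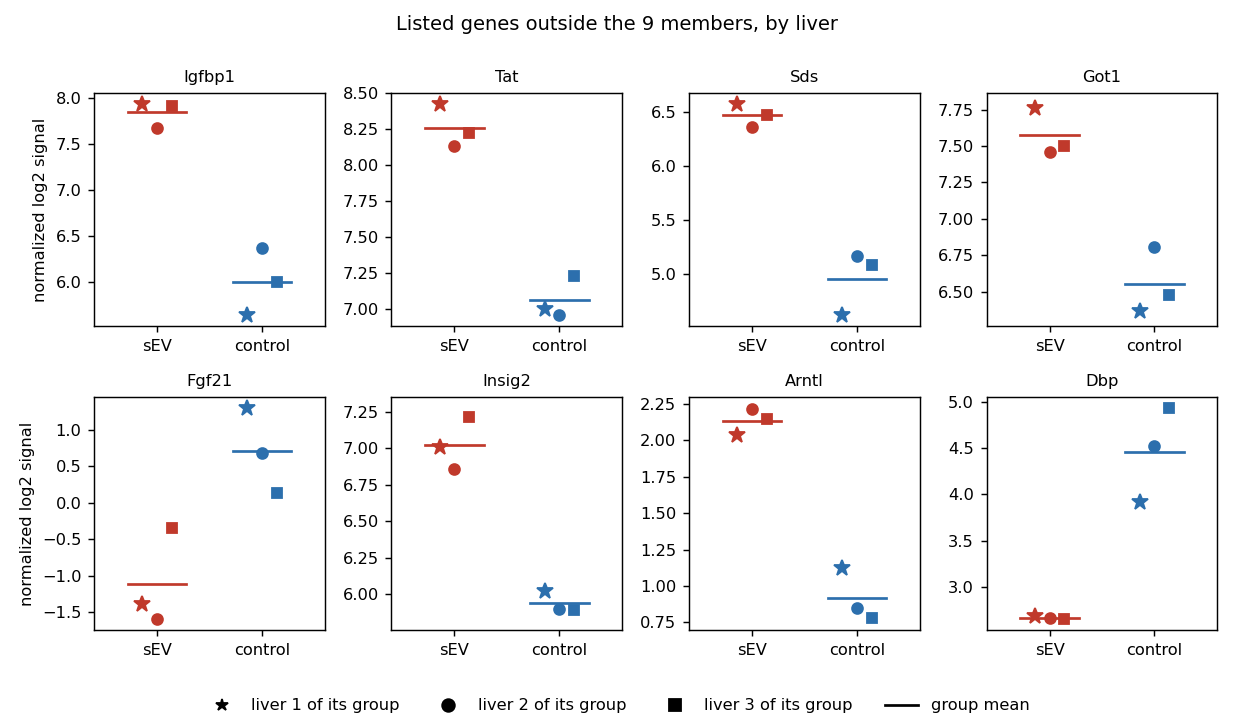
Normalized log2 signal (y axis, each panel with its own range) in 3 sEV livers (left) and 3 control livers (right) for genes of the fasting list (Igfbp1, Tat, Fgf21), the supply list (Sds, Got1), the glucose-responsive and insulin-induced list (Insig2) and the clock (Arntl, Dbp). The groups do not overlap in any panel, and Fgf21 and Dbp are the panels with sEV livers below the controls.

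Of 23 tested transcription factors and coactivators, 7 rose and 2 fell, with a median of 0.28 that stayed above 0 under the scalings run. The calls were fewer elsewhere, with 4 higher and 2 lower under median scaling, 1 higher and 2 lower under hepatocyte marker scaling, and 0 in either direction with slide row as a block. Cebpb, a cAMP- and inflammation-induced factor, had 5.72, 5.79 and 5.70 in sEV livers, against 4.91, 5.16 and 5.08 in control livers (0.69 ± 0.10, adjusted p = 0.00873 in limma). Klf9, a glucocorticoid-induced factor, rose by a log2 of 0.62, and Hnf4a, a factor of hepatocyte identity, by 0.54. Ppara, the fatty acid-sensing receptor of the fasted liver, fell by 0.58 on the log2 scale (adjusted p = 0.016 in limma). 

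Of 28 insulin and glucagon signalling genes 3 rose and 1 fell, against 9.08% higher and 7.95% lower over all genes. Their median of 0.02 turned to -0.06 with median scaling, -0.03 with quantile normalization and -0.14 with hepatocyte marker scaling. Insr, the insulin receptor, rose by a log2 of 0.55, Ptpn1, a phosphatase that dampens it, by 0.63, and Inpp5d, a lipid phosphatase of blood cells, by 0.32. Second probes of Insr (0.59, adjusted p = 0.07 over probes in limma) and Ptpn1 (0.31, adjusted p = 0.557) did not pass. Grb10, an inhibitory adaptor of the insulin receptor, had -3.44, -2.97 and -3.37 in sEV livers, against -2.08, -1.68 and -2.22 in control livers (-1.27 ± 0.18, adjusted p = 0.0101 in limma), and was well above background on 2 of 3 sEV arrays. With the alternative background correction its log2 fold change was -0.45, so its size depends on that step. Irs1, the paralogue of Irs2, was chosen for mention after its value was seen, and had 2.06, 1.70 and 1.54 in sEV livers, against 2.08, 2.11 and 2.27 in control livers. Its log2 fold change of -0.39 did not pass (adjusted p = 0.125 in limma).

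Among glucose-responsive and insulin-induced genes 3 of 18 rose and 1 fell, with a median of -0.01. The balance turned to 1 higher and 2 lower with median scaling and to 1 higher and 4 lower with hepatocyte marker scaling (median -0.18). In both, and with slide row as a block, the 1 higher gene was Insig2. Insig2, which retains the sterol-sensing complex in the endoplasmic reticulum and whose liver form is known to be lowered by insulin, had 7.01, 6.86 and 7.21 in sEV livers, against 6.02, 5.90 and 5.89 in control livers. It rose 2.13-fold (1.09 ± 0.11, adjusted p = 0.00385 in limma), passed in each setting and rose with all 3 of its probes. Its rise is counted in this list, although a gene lowered by insulin is not an insulin-induced one. Acacb (acetyl-CoA carboxylase 2, 0.51) and G6pdx (glucose-6-phosphate dehydrogenase, 0.45) rose on the log2 scale, and Arrdc4, a ChREBP target, fell by 0.51. Of 15 glycogen genes 3 rose and 2 fell, with a median of -0.05 (0 higher and 3 lower with hepatocyte marker scaling): Ppp1r3c, which brings a phosphatase to glycogen, was at 0.80, the branching enzyme Gbe1 at 0.48, glycogenin Gyg at -0.43 and liver glycogen synthase Gys2 at -0.35. Of the other Gbe1 probes, 1 passed at 0.72 and 1 ran the other way without passing (-0.52, adjusted p = 0.118 over probes in limma). Of 5 transporters tested Slc2a1, a glucose transporter found on many cells, rose by a log2 of 0.74, with a list median of 0.24. Other probes of Acacb, Arrdc4 and Gyg had the same sign as those above without passing.

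**Figure D5:**
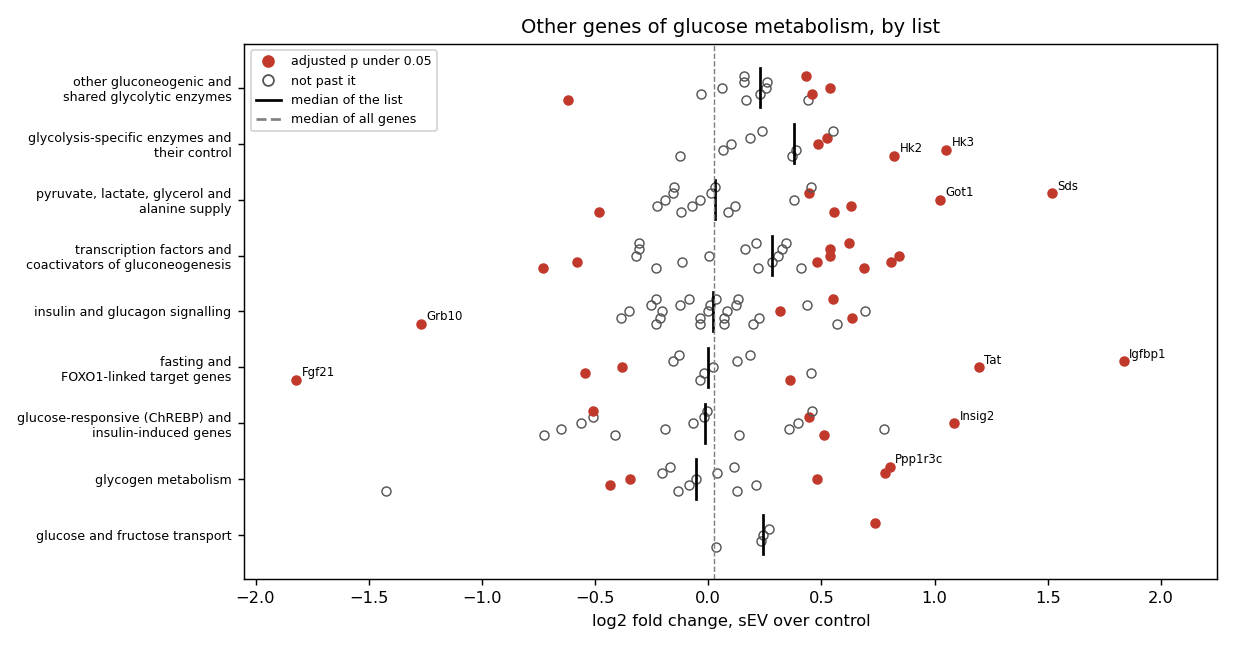
Log2 fold change of sEV over control (x axis) for each tested gene of the 9 pathway lists, filled where the adjusted p is under 0.05, with the median of each list as a black bar and the median of all genes (0.03) as a dashed line. Named genes beyond 0.75 in size carry their symbols. Among the filled points Igfbp1 (1.84) and Sds (1.52) lie farthest to the right and Fgf21 (-1.82) and Grb10 (-1.27) farthest to the left.

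Other gene groups were set beside these genes. With slide row as a block, the counts that passed fell to 2 of 9 for periportal genes, 4 of 13 for inflammatory genes and 0 for Kupffer cell, neutrophil and stellate cell markers, while all 8 markers of dividing cells still passed. Over all genes 715 of 19444 passed in that fit, against 3313 of 19447 without the block. Of 8 hepatocyte markers 0 passed, 7 had a positive log2 fold change and the median was 0.21, with a summed signal (in multiples of the 75th percentile) of 5325 to 6470 in sEV livers and 5093 to 5638 in control livers. All 8 passed the filter on dim probes, which bears out the label of liver. The 2 brightest were Serpina1a (log2 fold change 0.28) and Fgb (0.20). Relative to those 8 markers in each liver, Pck1 was 0.63 and Irs2 1.22 higher in sEV livers on the log2 scale. Of 9 genes of periportal hepatocytes, the zone where Pck1 and G6pc are known to be highest, 7 passed as higher and 0 as lower, with a median of 0.61 and a summed signal of 2152 to 2307 in sEV livers and 1212 to 1513 in control livers, Sds among them. Cps1, the entry enzyme of the urea cycle, had 6.81, 6.91 and 6.98 in sEV livers, against 5.96, 6.06 and 6.14 in control livers. Of 9 pericentral genes 1 passed (Rhbg, an ammonium transporter, 0.58), with a summed signal of 1722 to 1907 in sEV livers and 1449 to 1676 in control livers.

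Clock genes differed as well: of 12 tested, 3 passed as higher and 3 as lower in sEV livers, with a median of -0.19 and a summed signal of 67.1 to 86.7 in sEV livers and 94.9 to 134 in control livers, while Npas2 and Ciart failed the filter on dim probes. Arntl, the core activator, had 2.03, 2.22 and 2.15 in sEV livers, against 1.12, 0.85 and 0.78 in control livers (1.22 ± 0.12, adjusted p = 0.00311 in limma). Dbp, a clock output factor, had 2.69, 2.66 and 2.65 in sEV livers, against 3.91, 4.53 and 4.94 in control livers (-1.79 ± 0.25, adjusted p = 0.0084). Pck1 and G6pc are known to vary over the day, and the part of the hour of dissection in their values was not tested. All 13 genes of inflammatory signals to hepatocytes passed as higher in sEV livers (median 1.93, summed signal 5945 to 7345 in sEV livers and 1465 to 2236 in control livers), among them Saa3 at 6.53 and Orm2 at 1.86, both acute phase proteins. That list repeats a theme the study chose on these samples and is not independent evidence of its direction.

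Markers of other cells that a liver sample could hold were also set beside these genes, and their part in the results was not tested. Of 9 Kupffer cell markers 4 passed as higher (summed signal 240.2 to 263 in sEV livers and 166 to 216 in control livers), and of 9 neutrophil markers 6 (204 to 226 in sEV livers and 149.99 to 179 in control livers). The brightest Kupffer cell markers, Csf1r (0.31) and Lyz2 (0.37), did not pass. Of the brightest neutrophil markers S100a9 (1.11) passed, a call that ended in 8 settings, and Csf3r (-0.89) did not pass. Of 8 markers of dividing cells all passed as lower, with a summed signal of 2.60 to 3.57 in sEV livers and 42.6 to 53.3 in control livers. The 2 brightest were Birc5 (-3.61) and Ccnb2 (-4.14). Of 8 stellate cell markers 4 passed as lower (79.6 to 111 in sEV livers and 109 to 157 in control livers), as did 3 of 6 tested erythroid markers (290.3 to 937 in sEV livers and 840.2 to 913 in control livers). Among the brightest stellate cell markers Col3a1 passed at -1.89, a call that ended with slide row as a block, and Dcn (-0.21) did not pass. The 2 brightest erythroid markers, Hba-a1 (-0.58) and Alas2 (-0.68), did not pass either. Of 7 endothelial and 6 tested cholangiocyte markers 0 passed. The brightest were Clec4g (0.01) and Stab2 (-0.28) for endothelium, and Spp1 (-0.31) and Krt19 (-0.03) for cholangiocytes. Kidney, the other tissue that makes glucose, had 0 of 5 markers past the filter on dim probes. Of 10 pancreatic markers 3 were tested and 0 passed, and of 5 adipocyte markers the 1 tested, Lep, passed at 0.48. The brightest pancreatic markers tested were Ctrb1 (-0.19) and Gcg (0.51).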

How the data were processed

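Liver RNA of 3 sEV and 3 control mice was hybridised to 1 array each, and the treatment label placed each sample in its group. Per the submitters' processing notes, Agilent Feature Extraction 10.7.1.1 was the reading software. Processed signal is deposited as intensity in the scanner files, background-subtracted with spatial trends removed per the file headers, beside mean and local background intensity. A value table was also deposited, in log2 units, with how it was made not given in the sources used here. Its 6 columns had medians of 4.51, and each correlated at 0.9995 or more with the log2 processed signal of the same array. Run through the same comparison it came close to quantile normalization, with 3494 against 3498 genes past the threshold and Pck1 at 0.56 in both. Those 2 alternatives are therefore not separate observations.

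Values were log2 processed signal minus each array's 75th percentile over probes, without control or outlier-flagged spots, with spots of a probe averaged. Probes had to be well above background on 3 or more of 6 arrays, and the brightest stood for its gene name, leaving 19447 genes. The comparison of sEV with control livers used limma 3.58.1 under R 4.3.3 (lmFit and eBayes without covariates), p-values adjusted by Benjamini-Hochberg across the 19447 genes, and 0.05 as the threshold. The fit was tested on simulated data in which 200 of 19447 genes changed, with independent noise and no slide row effect. That test therefore does not bear on slide row. Log2 fold changes carry their standard error after ±. Accessions of 11 of 11 member probes matched RefSeq, whose gene coordinates are on GRCm38.p6, and the exon or untranslated part a probe lies in was not assigned.

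The 9 genes and the gene lists were chosen with earlier results of these data known. The genes named are the 9, up to 4 per pathway list past the threshold by moderated t, up to 2 per context list, the 2 brightest per marker list, and the 3 nearest in pattern to Pck1 and to G6pc. Genes named outside this rule are said to be so. A gene that the rule names near G6pc is not reported here. Alternatives changed background correction, scaling, filter, probes per gene, variance model, array weights, the value table, a block by number or slide row, and left out each array. Scaling to the 8 measured hepatocyte markers was added after seeing the data. Deviations of same-numbered livers correlated at 0.0178, 0.156 and 0.0212, so the numbers were not taken as pairs.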

Additional observations from a re-analysis of the deposited data

How the results depend on the processing

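The count of 2 member genes past the threshold held under all 19 alternatives, although in the fits blocked by slide row or run within row 1 the 2 were Pck1 and G6pc, not Irs2. Counted over probes, 1 passed within row 1, and 2 to 3 passed when an array was left out, the added probe being the second one of Foxo1, lower without sEV 1; no count over probes exists for the mean over probes of a gene. Over all genes 3313 passed, against 810 with no filter on dim probes, 715 when blocked by slide row, 594 within row 1, 2210 with the number as a replicate block, and 1349 to 2767 when an array was left out. Of the called genes 53.3% were higher in sEV livers, against 36.8% with median scaling, 40.2% with no filter, 35.1% when blocked by slide row, 29.3% within row 1 and 24.4% with hepatocyte marker scaling, which moved the median of all genes to -0.14. Of the pathway genes 43 passed, against 8 with no filter, 25 with the replicate block, 8 when blocked by slide row, 6 within row 1, 24 with hepatocyte marker scaling and 12 to 28 when an array was left out. The replicate block changed no call among the 9 genes. Members that did not pass changed direction as follows on the log2 scale, and the cause was not tested. G6pc was at -0.17 without sEV 1, and at up to 0.40 without another array. Fbp1 was at -0.14 with quantile normalization, -0.14 in the authors' deposited table, -0.0749 with hepatocyte marker scaling and -0.0031 in both fits by slide row. Ppargc1a was at -0.0386 without sEV 1 and -0.0223 without control 3, at up to 0.43 without another array and at 0.78 in both fits by slide row. Foxo1 was at 0.0745 and Gckr at 0.0399 in both fits by slide row. Pklr was at -0.0398 with median scaling, -0.13 with hepatocyte marker scaling, -0.35 in both fits by slide row, -0.12 without sEV 3 and -0.0018 without control 2, and at up to 0.23 without another array. Signal over background did not limit the 9 genes, all of whose probes were well above it on 6 of 6 arrays.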
